A study of Mus musculus with 8 samples.

Results

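The Kruppel-like factors are zinc finger transcription factors that bind GC-rich and CACCC sequences in promoters and enhancers. In the vessel wall they are known for setting cell state. Klf2 and Klf4 are induced by laminar flow in the endothelium and restrain inflammation and clotting there, Klf4 and Klf5 act in the switch of smooth muscle cells away from the contractile state, and Klf9 and Klf15 respond to glucocorticoids and follow the circadian clock. The 10 family members Klf2, Klf3, Klf4, Klf5, Klf6, Klf7, Klf9, Klf10, Klf13 and Klf15 were taken from a table of 48607 loci by their gene name. Where a name had several rows, the row with the largest total count was used.

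Poly(A) RNA was sequenced from entire aortas of mice that all lacked ApoE and had eaten a Western diet, for 12 weeks per the study's methods. The titles named 5 libraries ApoE-/- (1 to 5) and 3 libraries NPRC-/-ApoE-/- (1 to 3), the latter from mice that also lacked the natriuretic peptide clearance receptor in every tissue. That receptor is encoded by Npr3, and the deletion was a CRISPR frameshift in the first exon on the C57BL/6 background, with littermate ApoE-/- mice as the comparison. The study's methods give 5 mice per group for the sequencing, more than the 3 libraries titled NPRC-/-ApoE-/-. The study bought male ApoE-/- mice at 8 weeks of age, and the age of the crossed mice is not given in the sources used here. The genotype entered for each sample went against the title in 4 of the 8 libraries. The libraries titled ApoE-/- 4 and 5 were entered as NPRC-/-ApoE-/-, and those titled NPRC-/-ApoE-/- 1 and 2 were entered as ApoE-/-. The groups below are those of the title, and every member is also given by genotype entry.

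The total count was 62969165 to 86693276 per library, and every pair of libraries differed by more than sampling noise. Npr3 lay between 0.62 and 1.69 FPKM (fragments relative to the length of the transcript and to the depth of the library) for the title ApoE-/- and between 1.13 and 1.39 FPKM for NPRC-/-ApoE-/-, so the titled groups overlapped. A frameshift need not remove the transcript, so the level of Npr3 is no check of the genotype. The 8 endothelial and 6 smooth muscle markers of the aorta were all present in every library. Nothing in the labels says which samples share a litter or a preparation, and p-values measure the spread between these samples.

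By title, Klf2 and Klf4, both lower in NPRC-/-ApoE-/-, and Klf9 and Klf15, both higher, had an unadjusted p-value under 0.05 among the 9 members that could be tested. Over all 20506 loci tested this applied to 13.6%, of which 7.13% of loci were lower and 6.51% were higher. The study's own criterion asked in addition for a change of more than 2-fold in either direction, which 3.47% of loci and no member met. By edgeR's quasi-likelihood test 0 loci (0.0%) had an adjusted p-value under 0.05, while 2797 had an unadjusted p-value under 0.05. DESeq2 called 650 loci after adjustment, and no member was among them. The median log2 fold change was 0.18 over the 9 members and -0.01 over all loci.

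**Figure D1:**
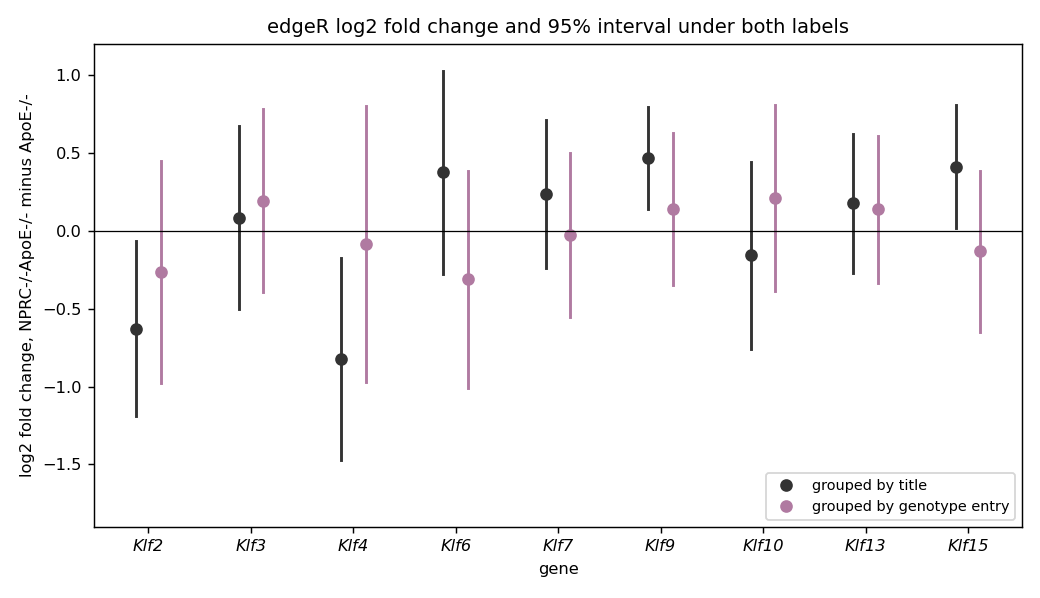
The plot gives the log2 fold change (NPRC-/-ApoE-/- minus ApoE-/-) of each tested Kruppel-like factor with its 95% interval from edgeR, by title and by genotype entry. By title the intervals of Klf2, Klf4, Klf9 and Klf15 leave out 0, and by genotype entry every interval includes it.

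Klf4 is a factor that is induced by flow in the endothelium, and that opposes contractile gene expression in smooth muscle. Its level was 8.52, 11.78, 17.02, 13.47 and 8.04 FPKM in ApoE-/- 1 to 5, and 7.04, 6.25 and 6.66 FPKM in NPRC-/-ApoE-/- 1 to 3. All 3 libraries titled NPRC-/-ApoE-/- were below all 5 titled ApoE-/-, and the ApoE-/- libraries were spread widely, with 2, 3 and 4 the highest. The mean was 11.8 ± 3.71 FPKM (SD, n = 5) against 6.65 ± 0.395 FPKM (SD, n = 3). The log2 fold change was -0.82 (SE 0.29), a level 0.566 times as high, with an edgeR adjusted p-value of 0.309 and an unadjusted p-value of 0.0188. The two-sided exact permutation test on log2 CPM (CPM, counts scaled to the library total) gave p = 0.0357, which is the smallest p-value that 5 against 3 libraries can give. Groups that did not overlap in this direction were found at 3.69% of all loci. Without NPRC-/-ApoE-/- 2 the log2 fold change of Klf4 was -0.74, with an unadjusted p-value of 0.0627.

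Klf2 is the endothelial factor of laminar flow, which the kinase ERK5 induces through MEF2 proteins, and it activates the promoters of nitric oxide synthase and thrombomodulin. It was at 7.80, 11.73, 12.41, 7.47 and 7.06 FPKM in ApoE-/- 1 to 5, and at 5.21, 5.95 and 6.66 FPKM in NPRC-/-ApoE-/- 1 to 3. In FPKM the titled groups did not overlap, although ApoE-/- 5 and NPRC-/-ApoE-/- 3 lay close together. These 2 libraries were in the other order in CPM (60.2 and 63.9). The shares of all loci without overlap were computed on log2 CPM, where Klf2 overlapped, and not on FPKM. The high values were those of ApoE-/- 2 and 3. The mean was 9.29 ± 2.56 FPKM (SD, n = 5) against 5.94 ± 0.725 FPKM (SD, n = 3), and the log2 fold change was -0.63 (SE 0.25), with an edgeR adjusted p-value of 0.33 and an unadjusted p-value of 0.0327. The exact permutation test gave p = 0.0714. Leaving out ApoE-/- 2 or 3, or NPRC-/-ApoE-/- 1 or 2, raised the unadjusted p-value to between 0.0677 and 0.109, at log2 fold changes of -0.45 to -0.59. The locus ran past the gene end at 72321656 to 72326423 on chromosome 8, so its counts can hold reads from outside Klf2.

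The promoters of both genes are shown because Klf2 and Klf4 were lower together and are known as targets of the same kinase, ERK5, in the endothelium. The sequences are those of RefSeq (GRCm38.p6), in the direction of transcription and up to the start of the transcript. Klf2 is on the plus strand at chr8:72318812-72319032, and Klf4 is on the minus strand at chr4:55532476-55532725. Capitals mark, on either strand, the CACCC box. They mark the E box, which is CACGTG, as well as the MEF2 consensus. They also mark the core of a cAMP response element, which reads TGACG.
Klf2: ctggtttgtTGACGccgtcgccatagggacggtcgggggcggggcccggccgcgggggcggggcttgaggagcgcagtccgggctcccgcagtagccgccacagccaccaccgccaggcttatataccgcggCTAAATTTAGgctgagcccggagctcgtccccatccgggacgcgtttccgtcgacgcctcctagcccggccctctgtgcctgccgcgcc
Klf4: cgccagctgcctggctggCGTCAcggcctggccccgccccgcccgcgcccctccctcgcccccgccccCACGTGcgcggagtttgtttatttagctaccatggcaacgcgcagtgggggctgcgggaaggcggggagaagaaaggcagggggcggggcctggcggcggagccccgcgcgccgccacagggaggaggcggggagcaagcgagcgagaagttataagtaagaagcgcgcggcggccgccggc
The MEF2 match in Klf2, CTAAATTTAG, begins 118 bases before the RefSeq start, which lies 29 bases past the end of the sequence shown. Of 32851 promoter windows of 250 bases, 2.92% held a MEF2 match, and Klf2 was the only one of the 8 members with a window that did. Both windows held TGACG, as did 17.8% of all windows, and Klf4 held an E box, as did 6.02%. A match is a description of the letters and not a bound site. Both are GC-rich, with a GC content of 71.2% in the full 250 bases of Klf2 and 74.0% in Klf4, against a median of 52.4% over all windows.

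Klf9, which the glucocorticoid receptor induces and which is rhythmic in many tissues, had the smallest p-value of the family. It was at 25.52, 21.02, 21.16, 25.69 and 21.11 FPKM in ApoE-/- 1 to 5, and at 29.49, 29.67 and 34.37 FPKM in NPRC-/-ApoE-/- 1 to 3. All libraries titled NPRC-/-ApoE-/- were above all titled ApoE-/-. The mean was 22.9 ± 2.47 FPKM (SD, n = 5) against 31.2 ± 2.77 FPKM (SD, n = 3), which is a log2 fold change of 0.47 (SE 0.14) and a level 1.38 times as high. Its edgeR adjusted p-value was 0.285, its unadjusted p-value was 0.0102 and the exact permutation test gave p = 0.0357. Groups that did not overlap in this direction were found at 3.72% of all loci. The unadjusted p-value stayed under the threshold with each of the 8 libraries left out, the highest being 0.044 without NPRC-/-ApoE-/- 3. In the 4 libraries whose title and genotype entry name the same genotype, the log2 fold change was 0.69. That set holds ApoE-/- 1 to 3 against NPRC-/-ApoE-/- 3 alone, the library with the highest Klf9.

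Klf15, a regulator of amino acid and glucose use that is likewise induced by glucocorticoids, was at 3.45, 3.10, 3.17, 4.08 and 3.44 FPKM in ApoE-/- 1 to 5. In NPRC-/-ApoE-/- 1 and 2 it was at 5.10 and 5.34 FPKM, above every other library, and in NPRC-/-ApoE-/- 3 it was at 3.24 FPKM, within the range of ApoE-/-. The groups thus overlapped. Within the title NPRC-/-ApoE-/-, the 2 high libraries were those whose genotype entry was ApoE-/-. ApoE-/- 1 to 3 had the same entry and were at 3.10 to 3.45 FPKM. The log2 fold change was 0.41 (SE 0.18), with an edgeR adjusted p-value of 0.353 and an unadjusted p-value of 0.043. The exact permutation test gave p = 0.0714. Leaving out a library raised the unadjusted p-value above the threshold in every case other than those of ApoE-/- 4 and NPRC-/-ApoE-/- 3, up to 0.143 without NPRC-/-ApoE-/- 2. In the 4 libraries whose title and genotype entry name the same genotype, with NPRC-/-ApoE-/- 3 alone in its group, its log2 fold change was 0.09. On all 8 libraries, limma on log2(FPKM + 1) and log2(FPKM + 0.1) gave unadjusted p-values of 0.0697 and 0.0737. The row of Klf15 also carried the name Gm44421, and its locus ran from 90430136 to 90479686 on chromosome 6, beyond the gene at 90462576 to 90475238, so its counts can hold reads from outside Klf15.

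**Figure D2:**
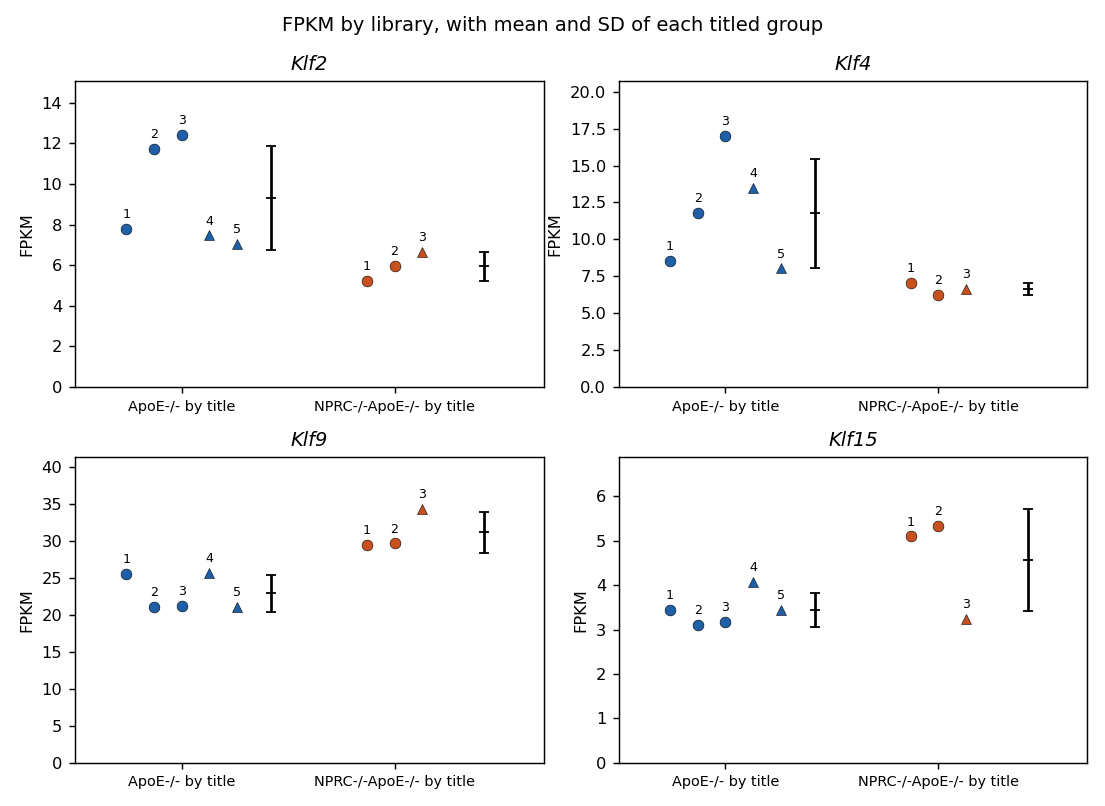
The plots give the FPKM of Klf2, Klf4, Klf9 and Klf15 in each library, numbered as in the titles, with the mean and SD of each titled group beside the points. Triangles are libraries entered as NPRC-/-ApoE-/- and circles are libraries entered as ApoE-/-, and only for Klf4 and Klf9 are the titled groups apart in both FPKM and CPM.

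The promoters of Klf9 and Klf15 are shown because both genes were higher by title. Klf9 is on the plus strand at chr19:23140976-23141225 and Klf15 on the plus strand at chr6:90462326-90462575, with the same marks in capitals.
Klf9: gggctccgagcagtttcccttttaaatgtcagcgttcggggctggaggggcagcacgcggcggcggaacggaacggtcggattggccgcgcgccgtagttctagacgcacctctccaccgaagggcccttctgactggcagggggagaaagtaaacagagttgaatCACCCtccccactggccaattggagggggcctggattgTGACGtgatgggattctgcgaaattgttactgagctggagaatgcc
Klf15: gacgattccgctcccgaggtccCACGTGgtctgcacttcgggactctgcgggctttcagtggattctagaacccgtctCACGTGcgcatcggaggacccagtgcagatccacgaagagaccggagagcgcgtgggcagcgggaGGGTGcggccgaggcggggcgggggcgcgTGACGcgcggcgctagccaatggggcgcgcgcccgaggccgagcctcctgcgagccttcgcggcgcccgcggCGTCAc
The Klf15 window held 2 E boxes, which begin 228 and 172 bases before the start, and the Klf9 window held none. Both held TGACG and CACCC, the latter found in 52.0% of all windows and in 6 of the 8 members matched. Neither window held the glucocorticoid response element ACANNNTGT, which 5.84% of all windows did, nor the D box TTANGTAA of clock output genes, found in 2.06%. The absence of these letters from 250 bases says nothing of more distant sites. The GC box GGGCGG, the sequence bound by SP factors, was in 7 of the 8 members' windows, Klf9 being the one without it, and in 32.7% of all windows. No window of the other 2 members, Klf5 and Klf10, is shown.

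Klf6, a factor induced by injury that also acts in macrophages, was at 28.97, 12.36, 22.59, 11.55 and 17.40 FPKM in ApoE-/- 1 to 5. The libraries NPRC-/-ApoE-/- 1 to 3 were at 24.08, 23.27 and 23.68 FPKM, inside the range of ApoE-/- and close to each other. The SD was 7.31 FPKM (n = 5) and 0.405 FPKM (n = 3). The log2 fold change was 0.37, with a 95% interval of -0.27 to 1.02 and an unadjusted edgeR p-value of 0.224.

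Klf10, the TGF-beta-inducible early gene, was at 8.85, 9.18, 4.06, 9.49 and 7.66 FPKM in ApoE-/- 1 to 5 and at 8.45, 5.29 and 6.95 FPKM in NPRC-/-ApoE-/- 1 to 3. ApoE-/- 3, which had the highest Klf2 and Klf4, had the lowest Klf10. The log2 fold change was -0.16 (95% interval -0.76 to 0.44). Klf13, known for raising the chemokine CCL5 in T lymphocytes, was at 7.06 to 11.22 FPKM in ApoE-/- and at 8.88 to 9.98 FPKM in NPRC-/-ApoE-/-, and the groups overlapped. Its log2 fold change was 0.18 (95% interval -0.27 to 0.62), with an unadjusted edgeR p-value of 0.392 that became 0.0491 without ApoE-/- 4, the library with the highest value. Klf3, a repressor that recruits the CtBP corepressors, was at 2.94 to 7.30 FPKM in ApoE-/- and at 4.25 to 5.64 FPKM in NPRC-/-ApoE-/-. The log2 fold change was 0.08 (95% interval -0.50 to 0.67), and its row also carried the name C230096K16Rik.

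Klf5, a driver of smooth muscle proliferation after injury, was at or near the floor of the table, with 0.10 to 0.44 FPKM over the 8 libraries and 43 to 213 counts. It reached 1 FPKM in no library and was left out of the test. The titled groups overlapped (exact permutation test p = 0.607).

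Klf7, which is known for axon growth in neurons, needs its row described first. The row with the most counts lies on the plus strand of chromosome 1 from 64042624 to 64074153, while the gene is on the minus strand from 64029447 to 64122282, and it covers 0 bases of Klf7 exons. It was at 2.50 to 4.22 FPKM in ApoE-/- and at 2.95 to 4.51 FPKM in NPRC-/-ApoE-/-, with a log2 fold change of 0.24 (95% interval -0.24 to 0.71). A further row on the gene's own strand, which covers all 8131 exon bases, was at 5.06, 4.90, 4.84, 3.97 and 5.28 FPKM in ApoE-/- 1 to 5 and at 4.82, 6.62 and 4.75 FPKM in NPRC-/-ApoE-/- 1 to 3. Apart from NPRC-/-ApoE-/- 2, these lay between 3.97 and 5.28 FPKM. The log2 fold change of that row was 0.19 (95% interval -0.13 to 0.50), so in both rows the groups overlapped. A row of the opposite strand also exists within Klf13, and whether the counting used strand is not stated in the sources used here.

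The order of the levels in FPKM, which is per assembled length, was Klf9 (mean 26.0 FPKM), Klf6 (20.5), Klf4 (9.85), Klf13 (8.84), Klf2 (8.04), Klf10 (7.49), Klf3 (4.99), Klf15 (3.87), Klf7 (3.56) and Klf5 (0.275). Klf9 was above Klf6 in 6 libraries of 8, Klf6 above Klf4 in 7, and Klf7 above Klf5 in 8. The middle of the order was not settled, since Klf4 was above Klf13 in 5 libraries, Klf13 above Klf2 in 5, Klf2 above Klf10 in 3 and Klf15 above Klf7 in 4. Klf7 moves up if its own strand is read, with a mean of 5.03 FPKM. These levels also depend on the assembled length. The length implied by counts and FPKM was 7380 bases for Klf2 against 1847 exon bases in GENCODE, because the locus ran past the gene end at 72321656 to 72326423, 13310 against 2791 for Klf15, 22645 against 7531 for Klf13, 21689 against 11243 for Klf3, 6138 against 4391 for Klf6 and 4443 against 3049 for Klf4. For Klf9 (4806 against 4815) and Klf10 (4178 against 4179) both lengths were nearly the same. Set per kilobase of GENCODE exon instead, a scale chosen after seeing the data, the order turned, with Klf2 at a mean of 39.7 CPM per kilobase, Klf6 at 35.2, Klf13 at 32.9, Klf9 at 32.0 and Klf15 at 22.7. They were followed by Klf4 at 17.8, Klf3 at 11.8, Klf7 (own strand) at 11.2, Klf10 at 9.18 and Klf5 at 0.342. The counts of a longer locus can hold reads from outside the exons, so neither order is settled at the top, and Klf2 was above Klf6 in 4 libraries of 8 on this scale. Klf5 was the lowest on both.

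**Figure D3:**
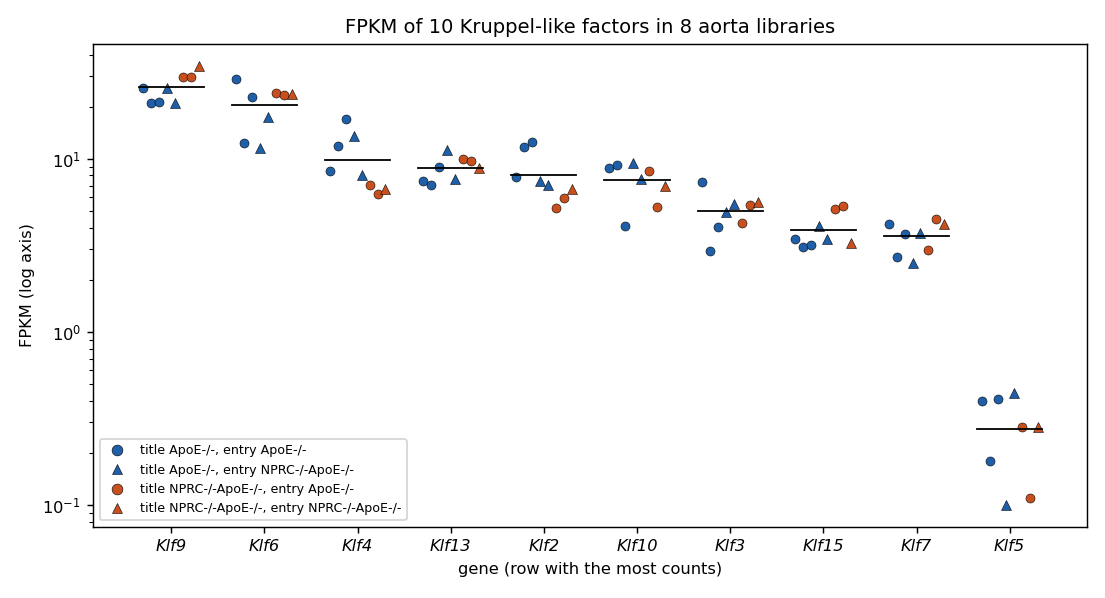
The plot gives the FPKM on a log axis of the 10 Kruppel-like factors in each of the 8 libraries, in the order of their means (bars), with colour for the title and shape for the genotype entry. Klf9 and Klf6 have the highest means on this scale, though not per kilobase of exon, and Klf5 lies below 0.5 FPKM in every library.

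The spread between libraries differed among the members. The SD of log2 CPM over the 8 libraries was 0.56 for Klf4, 0.49 for Klf6 and 0.46 for Klf2, against a median of 0.34 over all tested loci. Klf13 (0.28), Klf9 (0.30) and Klf15 (0.31) were below that median. Over 45 pairs of members, Klf2 and Klf4 were the most alike, with Pearson's r = 0.851 (exact permutation p = 0.0094, adjusted 0.424) and Spearman's rho = 0.929 (exact permutation p = 0.0022, adjusted 0.1) over 8 libraries. Without the 2 libraries farthest from the median of Klf2, r was 0.677, and within the titled groups it was 0.728. The next pairs were Klf6 with Klf7, with r = 0.789 (rho 0.69, exact permutation adjusted p = 0.587), which fell to 0.308 without 2 libraries, and Klf13 with Klf15, with r = 0.68 (rho 0.857, exact permutation adjusted p = 0.629). The lowest r was that of Klf2 with Klf15 at -0.652 (rho -0.55, exact permutation adjusted p = 0.629), and Klf7 with Klf10 was next to it at -0.650 (rho -0.64, exact permutation adjusted p = 0.629). No pair passed the adjustment over 45 pairs. Klf7 in these pairs is the row on the opposite strand, which covers 0 bases of Klf7 exons. The pairs were not computed with its own-strand row, so the place of the Klf7 pairs in this order is not settled.

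Among 4219 named loci with a mean of at least 5 FPKM, those whose log2 CPM followed Klf2 most closely over the 8 libraries were Nr4a1 (r = 0.979), Spry2 (0.978), Gm18588 (0.962), Gm10591 (0.962) and Btg2 (0.954). Nr4a1 and Btg2 are immediate early genes, and Spry2 is a feedback inhibitor of receptor tyrosine kinases. For Klf4 they were Scpep1 (0.988), the stromal surface protein Cd248 (0.984), the NF-kB inhibitor Tnip1 (0.979), Shisa5 (0.976) and Nono (0.975). For Klf9 they were a locus of Wwp2 and Mir140 (0.966), Crim1 (0.946), Phldb2 (0.937), Ext1 (0.921) and Lpp (0.920). These values describe 8 libraries that share 1 normalization, and were picked as the highest of many.

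Klf2, Klf4, Klf6 and Klf10 are themselves often induced with the immediate early genes, the first genes to respond to growth factors or stress. Of 17 such genes tested, 9 were lower by title with an unadjusted p-value under 0.05 and 0 were higher. Over all loci tested, 7.13% were lower and 6.51% were higher in this way. The median log2 fold change of the 17 genes was -1.19. Fos was at 15.3, 80.3, 104.9, 41.9 and 12.7 FPKM in ApoE-/- 1 to 5 and at 12.8, 11.9 and 13.1 FPKM in NPRC-/-ApoE-/- 1 to 3. Jun (-0.70 on the log2 scale) and Atf3 (-0.83) were lower with no overlap, which 3.69% of all loci showed in this direction. The summed FPKM of the 17 genes was 183, 532, 575, 344 and 150 in ApoE-/- 1 to 5, and 156, 141 and 175 in NPRC-/-ApoE-/- 1 to 3. ApoE-/- 2, 3 and 4 were thus high, while ApoE-/- 1 and 5 were near the libraries titled NPRC-/-ApoE-/-. The same 3 libraries had the highest Klf4, but Klf6 was lowest in ApoE-/- 2 and 4. In FPKM 2 of the 3, ApoE-/- 2 and 3, had the highest Klf2. In CPM all 3 did, with ApoE-/- 4 (71.2) above ApoE-/- 1 (67.7). What part the immediate early genes have in the lower Klf2 and Klf4 was not tested.

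**Figure D4:**
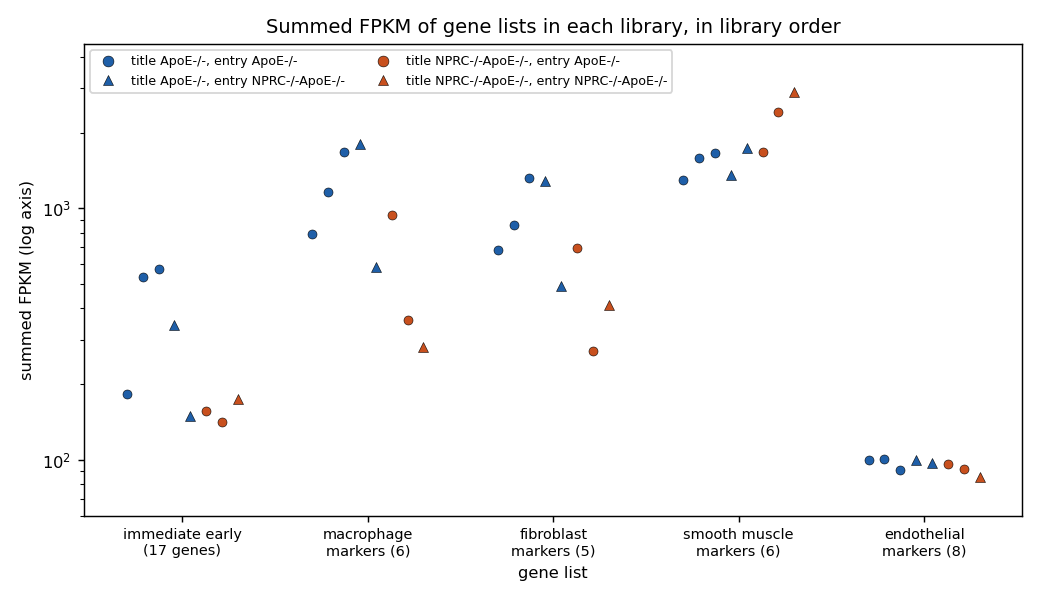
The plot gives on a log axis the summed FPKM of immediate early genes and of markers of 4 cell types in each library, drawn from left to right in the order ApoE-/- 1 to 5 and NPRC-/-ApoE-/- 1 to 3. Immediate early genes and macrophage markers are highest in ApoE-/- 2, 3 and 4, and endothelial markers lie between 85.1 and 100 in every library.

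Some cell markers differed by title as well, none with an edgeR adjusted p-value under 0.05. Below, lower and higher mean an unadjusted p-value under 0.05, which 7.13% and 6.51% of all loci had. The 8 endothelial markers, the cells in which Klf2 and Klf4 answer to flow, summed to 91.5 to 100.5 FPKM in ApoE-/- and 85.1 to 96.7 FPKM in NPRC-/-ApoE-/-, and 0 of 8 had an unadjusted p-value under 0.05. Among them, only Cdh5 had groups that did not overlap. It was at 13.38 to 18.3 FPKM against 12.11 to 12.98 FPKM (unadjusted edgeR p-value 0.0595), and 3.69% of all loci had no overlap in this direction. All 6 smooth muscle markers were higher, with Smtn at 0.99, Myh11 at 0.84 and Cnn1 at 0.66 on the log2 scale, and they summed to 1301 to 1742 FPKM against 1675 to 2888 FPKM. The macrophage markers Csf1r and C1qa (2 of 6) were lower. The sums of all 6 were 582 to 1794 FPKM against 282 to 939 FPKM. Most of each sum was Lyz2, at 478 to 1544 FPKM against 220 to 807 FPKM (unadjusted edgeR p-value 0.0508). The fibroblast markers Dcn and Dpt (2 of 5) were lower too, and that list had sums of 490 to 1318 FPKM against 271 to 692 FPKM. The tested T cell marker Cd4 was lower, on a sum of the T cell markers of at most 6.11 FPKM. Brown adipocyte markers summed to 110 to 544 FPKM against 319 to 521 FPKM. Brown and white adipocyte, erythroid, cardiomyocyte, skeletal muscle and B cell markers had no such p-value, and Ms4a1, Myh6, Myl7 and Myh4 were at 0 in at least 1 library. In a whole aorta, fewer cells of a type and less RNA per cell cannot be told apart, and the part of these cells in the values of Klf2, Klf4, Klf9 and Klf15 was not tested.

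The genes that the members act on, or that act on them, were taken from 14 lists. Of 6 smooth muscle genes that Klf4 opposes, 5 were higher by title (median 0.60 on the log2 scale), among them Myocd (0.59), the cofactor that drives the contractile program, Myh11 and Cnn1. They share Myh11, Acta2, Tagln and Cnn1 with the smooth muscle markers. Of 6 tested genes that Klf2 and Klf4 induce in the endothelium, only Ass1 (-0.98), which makes arginine for nitric oxide synthesis, had an unadjusted p-value under 0.05, and of 5 that they repress only Sele (-1.23), the adhesion molecule E-selectin. Both were lower. In the ERK5 and MEF2 pathway upstream of Klf2, 1 of 6 genes had such a p-value, Mef2d (0.34), which was higher.

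Around Klf9 and Klf15, 0 of 10 glucocorticoid receptor genes and targets had an unadjusted p-value under 0.05 by title (median -0.23). Of 14 tested clock genes, Per2 (0.65) and Tef (0.84) were higher and 0 were lower, with a median of 0.41. Of 6 genes of amino acid breakdown, which Klf15 activates, Prodh was higher (0.74), at 0.84 to 1.06 FPKM in ApoE-/- and 1.41 to 1.66 FPKM in NPRC-/-ApoE-/-. It was the gene with the smallest unadjusted p-value of the lists (0.000266, edgeR adjusted p = 0.177). None of 9 adipogenesis genes, 8 TGF-beta early genes and 3 ubiquitin ligases of these factors had an unadjusted p-value under 0.05, and of 10 corepressors and coactivators only Sap30 (-0.87), a subunit of the SIN3 complex, did. Of the other family members, Klf8, Klf11, Klf12 and Klf16 were tested, with log2 fold changes of 0.18, 0.06, 0.24 and -0.42 and no p-value under 0.05, and of the SP factors Sp1, Sp2, Sp3 and Sp4 were tested with the same outcome. Klf1 and Klf14 were at 0.05 FPKM or less in every library.

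**Figure D5:**
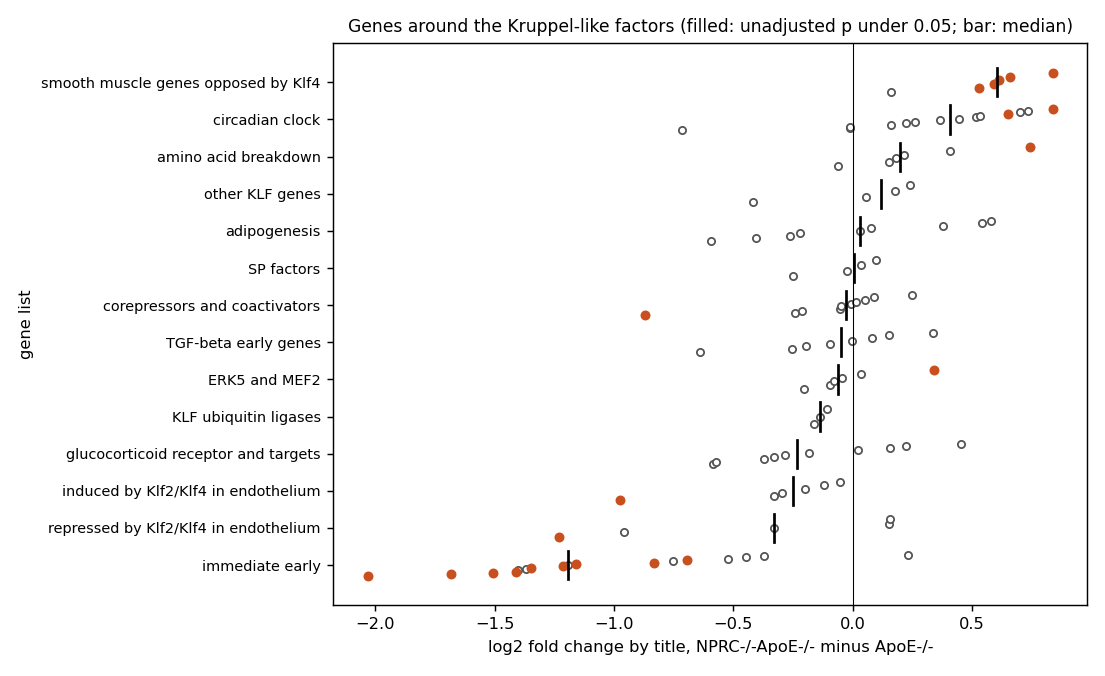
Each point is a tested gene of one of the 14 lists, placed by its log2 fold change by title (NPRC-/-ApoE-/- minus ApoE-/-), filled where the unadjusted p-value was under 0.05, with a bar at the median of the list. The 9 filled immediate early genes lie below 0 and the 5 filled smooth muscle genes lie above it.

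By genotype entry, no member had an unadjusted p-value under 0.05, which 1.31% of all loci had, and none had groups that did not overlap, which 1.2% of loci had. After edgeR's adjustment 0 loci (0.0%) passed, with 269 at an unadjusted p-value under 0.05. Klf4 was at 10.1 ± 4.40 FPKM (SD, n = 5) against 9.39 ± 3.60 FPKM (SD, n = 3), with a log2 fold change of -0.09 and a 95% interval of -0.97 to 0.80. Klf2 was at -0.26 (95% interval -0.98 to 0.45) and Klf9 at 0.14 (95% interval -0.35 to 0.63) on the log2 scale. The direction of Klf15 (-0.13), Klf6 (-0.31), Klf10 (0.21) and Klf7 (-0.02) was opposite to that by title. Klf3 and Klf13 were at 0.19 and 0.14. Of all list genes 1 had an unadjusted p-value under 0.05, the glucocorticoid target Fkbp5.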

How the data were processed

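The authors trimmed the reads (cutadapt 1.9 and FastQC in the submitters' processing notes), mapped them with HISAT2 to GRCm38, assembled them with StringTie, and deposited for each locus and library a whole-number count without normalization and an FPKM value, normalized by the authors to length and mapped fragments. The table had 0 columns of values without a sample. Loci that reached 1 FPKM in 3 or more libraries (20506) entered the test of counts by edgeR 4.0.16 in R 4.3.3 (TMM, dispersion trend, quasi-likelihood test, Benjamini-Hochberg over all loci), on all 8 libraries by title (5 against 3) and by genotype entry. CPM was computed on TMM-scaled libraries, with a prior count of 2 for log2 CPM. Precision is bounded by the few libraries; edgeR's biological coefficient of variation was 0.327, and total counts are given with the results. Single values were compared by two-sided exact permutation tests in scipy 1.17.1. The fit by title was tested on simulated data with planted changes larger than that of any member. It therefore does not show whether changes of the members' size would be found. Alternatives used limma 3.58.1 and DESeq2 1.42.0, other scalings, filters and pseudocounts, sums over rows, each library left out, and the replicate number as a block. The deviations of same-numbered libraries of the titled groups correlated at -0.31 to 0.01. With 3 libraries per group, this cannot tell whether the numbers stand for a shared preparation. The members and gene lists were chosen with earlier results of these data known. Named were all 10 members, up to 3 genes per list with the smallest unadjusted p-value under 0.05, and the 5 loci most like Klf2, Klf4 and Klf9. The levels of the other list members (Klf and SP factors, markers at 0) and Fkbp5 were named after their values were seen. Promoter sequences were matched by symbol in RefSeq for 8 of 10 members, and gene models are those of GENCODE in the same build. Lengths were derived from counts and FPKM, scaled on 1898 loci with 1 transcript. The result of 1 marker list is not reported here.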

Additional observations from a re-analysis of the deposited data

Results flagged for a closer look

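Klf6 in the library titled ApoE-/- 2 stood apart from the other 4 libraries entered as ApoE-/-, with a log2 CPM of 6.494. Of 20 groups of a member and a label, 1 stood apart in this way, about as many as chance gives. In the grouping by title, ApoE-/- 4 lay nearly as low and no library stood apart.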

How the results depend on the processing

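Of the 4 members with an unadjusted p-value under 0.05 by title, 0 had one by genotype entry (1.31% of all loci). The 4 libraries with matching labels set NPRC-/-ApoE-/- 3 alone against ApoE-/- 1 to 3. There the log2 fold change was 0.69 for Klf9, -0.84 for Klf4, -0.60 for Klf2 and 0.086 for Klf15. Leaving out each library in turn gave 1 to 5 members. The fewest were without NPRC-/-ApoE-/- 2, where the share of all loci was 6.5% against 13.6% in the whole set. The most were without ApoE-/- 4, where that share was 10.2%. There were 2 without ApoE-/- 2 (10.2%), ApoE-/- 3 (10.3%) or NPRC-/-ApoE-/- 1 (21.6%). With the replicate number as a block, in the 6 libraries numbered 1 to 3, the count was 3 members (8.84% of all loci), and 4 without the block (12.9%). The deviations of same-numbered libraries had correlations of -0.31, -0.11 and 0.01, and those of differently numbered libraries ranged from -0.16 to 0.23. With 3 libraries per group, this check cannot tell whether the numbers stand for a shared preparation. The list genes (all their alternatives were chosen after seeing the data) numbered 21 by title and 1 by genotype entry, and 9 to 31 with each library left out. The fewest were without NPRC-/-ApoE-/- 2 or 3 and the most without ApoE-/- 5. The share of all loci also moved, from 13.6% by title and 1.31% by genotype entry to 6.5% and 6.7% without NPRC-/-ApoE-/- 2 and 3. Without ApoE-/- 5 it was 18.7%. The sign turned for Klf3 (-0.060 without ApoE-/- 2 and -0.02 without NPRC-/-ApoE-/- 3), Klf6 (-0.31), Klf7 (-0.025) and Klf15 (-0.13) by genotype entry, and Klf10 (0.21 by genotype entry, 0.017 in the 4 libraries, 0.031 without NPRC-/-ApoE-/- 2); with each library left out Klf3 ranged from -0.060 to 0.25 and Klf10 from -0.30 to 0.031; the cause was not tested. By genotype entry with each library left out, also added later, the count of members was 0 in every fit. No member had an adjusted p-value under 0.05 in any alternative; the ranges were 0.0776 to 1.0 for Klf9, 0.0962 to 1.0 for Klf4, 0.133 to 1.0 for Klf2 and 0.181 to 1.0 for Klf15. The loci past an adjusted p-value of 0.05 numbered 0 by edgeR, 650 by DESeq2, 130 by limma with library weights and 45 without NPRC-/-ApoE-/- 1. Reading Klf7 from its own strand, added after seeing the data, left its call as it was. Klf5 was too low to test, and a stricter filter of 5 FPKM left out Klf3, Klf7 and Klf15.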
